A study of Saccharomyces cerevisiae with 90 samples.

Results

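The genes described are the autophagy genes of budding yeast, taken as every gene whose only annotated symbol is ATG followed by a number, together with 8 genes of vacuolar proteolysis. These 8 are PRB1, PEP4, PRC1, CPS1, APE3, APE1 (also known as LAP4), AMS1 and PBI2. The rule found 44 genes, 36 of them named ATG, out of 5794 genes measured in the series, and all 44 were present in both of its value tables. The rule goes by name and not by values, though it was set with earlier results of these data known. The series used Affymetrix arrays to measure mRNA in diploid yeast that grows as chains of elongated cells when nitrogen is scarce.

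The first table holds 70 arrays of colonies of strain background G85 grown for 10 h. The wild type was measured in the yeast form on synthetic complete dextrose medium (SCD, 6 arrays) and in the filamentous form on synthetic low-ammonium dextrose medium (SLAD) with uracil and histidine (3 arrays). All deletion strains grew on SLAD, so each was compared with the same 3 filamentous wild-type arrays. Single deletions, by their labels, removed the transcription factor genes TEC1 or CUP9 (5 arrays each) or SFL1, SOK2, SKN7 or YAP6 (3 arrays each), with bcKanMX4 in place of each gene except YAP6, where NatMX4 was used. For 13 strains the labels name a pair of these deletions (3 arrays each). Because medium and growth form changed together, they cannot be told apart.

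The second table holds 20 arrays of MATa/alpha strains altered in Ras signalling and grown in SC (synthetic complete) medium. The wild type (SR1187, 4 arrays) is ura3-52/ura3-52 with the plasmid pRS316. The ira1 strain (SR595) carries ira1::HIS3/ira1::LEU2 with pRS316, and the ira1RA strain (SR954) has the same genotype with pRS316-IRA1RA, a point mutant of IRA1 with alanine in place of an arginine. The ira2 strain (SR563) carries ira2::HIS3/ira2::LEU2. Plasmids with RAS2V19, a dominant active form (SR453), or RAS2A22, a dominant negative form (SR753), make the last pair. These 5 strains have 2 arrays each. Strains labelled ras1::HIS3 ras2delta pde2::kanR were given 0, 0.5, 1 or 2 mM cyclic AMP (cAMP), with 2, 1, 1 and 2 arrays. The 0 mM arrays are of strain SR959 with the plasmid pRS315 and the others of SR957 without it, so cAMP and that difference of strain cannot be told apart. The ira and the ras1 ras2 pde2 strains also differ from the wild type in auxotrophic markers.

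In autophagy a cell wraps part of its cytoplasm, or a chosen cargo, in a double membrane and delivers it to the vacuole, the compartment in which yeast breaks down macromolecules. The kinase Atg1 and its scaffolds start the membrane, vesicles with Atg9 and lipid transfer enlarge it, and a ubiquitin-like system attaches Atg8 to it. Receptors bring in single cargoes, and in the vacuole a lipase and a cascade of proteases, started by proteinase A (PEP4), break down what arrives so that amino acids can leave. The pathway is known as a response to nitrogen starvation, and both TOR complex 1 and Ras with protein kinase A are known to restrain it.

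In the colony table, levels of these genes are log2 values, and 13 of the 44 lay under the 25th percentile of mean level over all genes. The protease genes APE3, PRC1, PEP4 and CPS1 lay over the 90th. In whole colonies, fewer cells of a kind and less RNA per cell cannot be told apart. Between the forms of the wild type, the filamentous-form markers FLO11 and DAL5 went from 8.43 to 10.63 and from 7.41 to 12.08. None of 4 sporulation markers was called there. Values of MEP2, also listed as a filamentous-form marker, and of the haploid markers STE2, STE3 and FUS1 are not given here. The library labelled tec1 replicate 1 had TEC1 at 8.68 and CUP9 at 4.07, and the library labelled cup9 replicate 4 had TEC1 at 4.57 and CUP9 at 8.21, each against its label. The strain labelled cup9-yap6 had CUP9 at 8.17, against 7.78 in the filamentous wild type. The transcripts of SFL1, SOK2, SKN7 and YAP6 were lower than in the wild type in the strains lacking each. In SC medium, the strains labelled ras1 ras2 pde2 had a RAS1 signal of 7.14 to 8.28, above the wild type's 4.81, while RAS2 and PDE2 were near or at the floor. A change below is a difference of log2 means with its standard error from limma. A gene rose or fell where the Benjamini-Hochberg adjusted p over all genes was under 0.05.

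Between the forms of the wild type, the genes for the vacuolar proteases PRB1 and PEP4 were lower in the filamentous form, while CPS1 and the inhibitor gene PBI2 were higher. Of the 44 genes, 15 fell and 3 rose, a share of 40.9% called against 44.9% of all genes measured (21.6% higher and 23.2% lower). The median change was -0.14 over the 44 and 0.05 over all genes. The share called was thus near that of all genes. Counts by role follow, and roles were not tested against each other.

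Among the vacuolar hydrolases, 4 of 7 fell and 1 rose. PRB1, which encodes proteinase B, the main vacuolar endoprotease, was at 9.51, 9.36 and 9.16 on the filamentous arrays and at 10.43, 10.55 and 10.68 (lowest, median and highest) on the 6 yeast-form arrays. Every filamentous array was below every yeast-form array, and PRB1 was 2.3-fold lower, a change of -1.20 ± 0.24 (adjusted p = 8.38e-05). PEP4, whose product activates the other proteases, was at 11.09, 11.02 and 10.86 against 11.98, 12.11 and 12.16. The arrays did not overlap here either, and PEP4 fell by 1.09 ± 0.20 (adjusted p = 1.38e-05). AMS1, the vacuolar alpha-mannosidase, went from 6.54 to 5.52, a fall of 1.02 ± 0.18. PRC1, carboxypeptidase Y, fell by 0.77 ± 0.24. CPS1, the zinc-dependent carboxypeptidase S, went the other way, at 11.14, 10.97 and 10.42 on the filamentous arrays against 9.39, 9.50 and 9.70, all above the yeast-form range. CPS1 rose by 1.32 ± 0.48 (adjusted p = 0.0203). APE1 (aminopeptidase I) and APE3 (aminopeptidase Y) were not called.

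PBI2 encodes the cytosolic inhibitor of proteinase B, the product of PRB1. Its filamentous arrays were at 10.88, 10.73 and 10.43 and the yeast-form arrays at 9.44, 9.57 and 9.70, with no overlap. PBI2 rose by 1.09 ± 0.30 (adjusted p = 0.00282), so that the inhibitor's transcript was higher and the protease's lower in the filamentous form.

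All 3 genes of vacuolar breakdown and efflux fell: ATG22, an amino acid exporter, by 0.99 ± 0.25, ATG42, a serine carboxypeptidase related to PRC1, by 0.95 ± 0.29, and ATG15, the lipase that opens the inner vesicle, by 0.63. Upstream of the vacuole, the largest falls were in single genes of several steps. ATG5, part of the complex that directs Atg8 to the membrane, was at 7.66, 7.61 and 7.53 against 8.74, 8.87 and 9.05, and fell by 1.27 ± 0.15 (adjusted p = 7.6e-10). It was the only one of the 8 conjugation genes called. ATG41, known to be needed for Atg9 traffic, was at 7.87, 8.09 and 7.37 against 8.92, 9.18 and 9.85, and fell by 1.49 ± 0.34 (adjusted p = 0.000373). ATG18, which binds phosphoinositides at the growing membrane, fell by 0.91 ± 0.17 and made the second of 6 Atg9 and membrane genes called. ATG33 and ATG40, factors for the uptake of mitochondria and of endoplasmic reticulum, fell by 1.19 ± 0.32 and 0.78 ± 0.17. With ATG36, a peroxisome receptor (-0.72), they were the 3 of 10 selective genes that fell. In the Atg1 complex 1 of 6 fell (ATG29, by 0.38), ATG45 fell by 0.45, and of the PI3-kinase pair ATG38 rose by 0.49 ± 0.13.

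ATG8, the ubiquitin-like protein of the membrane and a common marker of autophagy, was not called between the forms. It was at 6.65, 6.26 and 6.55 against 5.82, 6.20 and 6.41, and the ranges overlapped (change 0.33, adjusted p = 0.240). The kinase gene ATG1 differed by -0.16 (adjusted p = 0.558). Of the 18 calls, 11 held without each array in turn. Without filamentous replicate 3, ATG15, ATG42, ATG45 and PRC1 no longer passed (adjusted p = 0.106, 0.0909, 0.072 and 0.0653). Without filamentous replicate 1, ATG29, ATG36 and CPS1 no longer passed (0.0532, 0.128 and 0.0901). CPS1 was also lost without replicate 2 (0.0651) and ATG36 without replicate 3 (0.054). With the replicate number as a block, 16 of the 44 were called, and ATG15 and ATG36 were the pair lost (0.0526 and 0.0649).

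**Figure D1:**
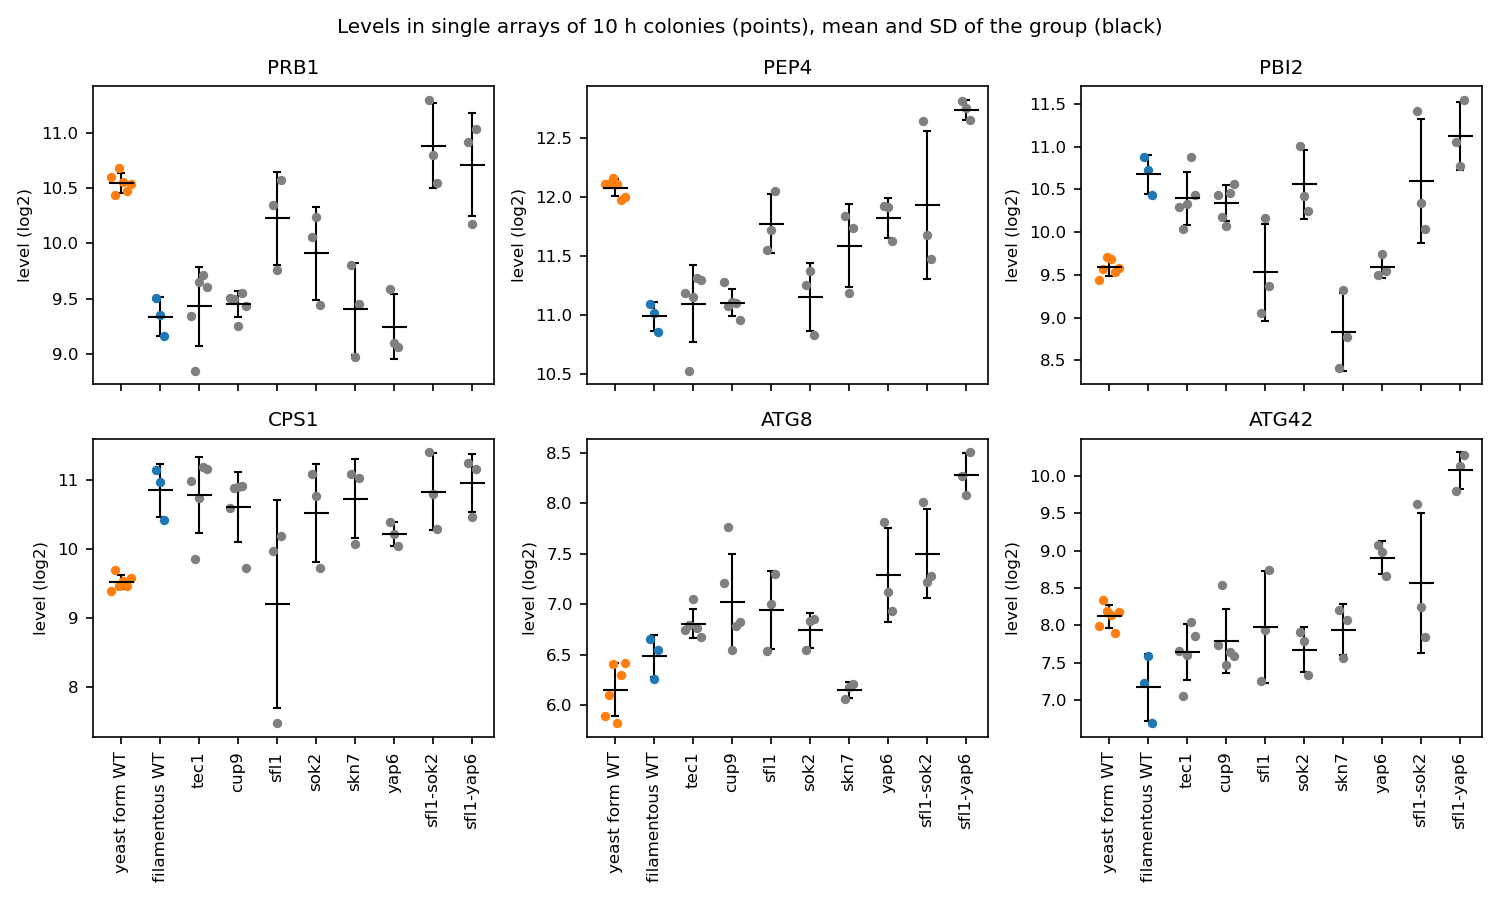
Log2 level of PRB1, PEP4, PBI2, CPS1, ATG8 and ATG42 (vertical axis) on each array of 10 colony groups (horizontal axis), with points for arrays, a bar for the mean and an error bar for the SD. PRB1 and PEP4 are lower and PBI2 and CPS1 higher on the 3 filamentous wild-type arrays than on the 6 yeast-form arrays, and ATG8 and ATG42 are highest in sfl1-yap6.

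Deletion of TEC1, CUP9 or SOK2 alone gave no called member by limma. By the adjusted p, the shares of all genes called were 0.126%, 0.342% and 1.17%. At an unadjusted p under 0.05 there were 1, 5 and 1 of 44. The share of all genes at that looser threshold is not given here, so these counts cannot be read as an excess. For tec1 and cup9 the count of members called stayed at 0 without tec1 replicate 1 and cup9 replicate 4, which read against their labels. A count of 0 does not show that these genes were unchanged. The other 3 single deletions each changed some of the 44. In sfl1, 7 rose and 3 fell (24.8% of all genes called, 10.3% higher and 14.5% lower), and the median of the 44 was 0.25 against -0.08 over all genes. In skn7, 6 rose and 3 fell (37.1% of all genes, 16% higher and 21% lower), with medians of 0.07 and -0.05. In yap6, 14 rose and 1 fell (23.6% of all genes, 12.6% higher and 11.1% lower), with medians of 0.19 and -0.02. The share of the 44 called was 34.1% in yap6, above the share of all genes, and 22.7% and 20.5% in sfl1 and skn7, below it.

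The yap6 strain was higher at several steps of the pathway. ATG41 was at 10.81, 9.99 and 9.92 on its arrays, all above the highest wild-type array in either form (9.85), and rose by 2.46 ± 0.39 over the filamentous wild type (adjusted p = 3.76e-06). ATG42 was at 9.07, 8.98 and 8.66, against 7.22, 7.59 and 6.69 in the filamentous wild type, and rose by 1.74 ± 0.34 (adjusted p = 0.00011). APE1, whose product reaches the vacuole by a constitutive form of selective autophagy, was at 10.21, 9.49 and 9.67 against 8.54, 8.59 and 7.80. It rose by 1.48 ± 0.38 (adjusted p = 0.00332). In the conjugation system ATG7, the activating enzyme, rose by 1.25 ± 0.24 and ATG5 by 1.27 ± 0.17. The mean of ATG5 was 8.87 in yap6 and 8.88 in the yeast form of the wild type. ATG32, the mitochondrial receptor, rose by 1.28 ± 0.28, ATG21 by 1.01, ATG18 by 0.85, PEP4 by 0.83 and ATG29 by 0.57. These 10 calls held without each array. The other 5 did not: ATG8 (0.80 ± 0.27) was lost without filamentous replicate 2 or yap6 replicate 1 (adjusted p = 0.0994 and 0.213), ATG15 (0.91) without filamentous replicate 3 or yap6 replicate 2 (0.0502 and 0.0514), and PBI2 (-1.08 ± 0.35) without filamentous replicate 1 or 2 or yap6 replicate 1 (0.0727, 0.051 and 0.0663). ATG13 (0.59) was lost without filamentous replicate 2 or 3 or yap6 replicate 1 or 2 (0.0526 to 0.138), and ATG4 (0.46) without filamentous replicate 3 or yap6 replicate 1 or 2 (0.0649 to 0.0854).

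The sfl1 strain had 2 calls that held without each array. ATG5 was at 8.38, 9.01 and 8.71, all above the filamentous arrays, and rose by 1.10 ± 0.17 (adjusted p = 5.79e-06). AMS1 was at 6.31, 6.52 and 6.19 against 5.82, 5.28 and 5.46, and rose by 0.82 ± 0.21 (adjusted p = 0.00341). PRB1, at 10.35, 9.76 and 10.57, rose by 0.88 ± 0.28, which was lost without sfl1 replicate 1 or 3 or filamentous replicate 3 (adjusted p = 0.0556, 0.146 and 0.0774). PEP4 rose by 0.79, lost without sfl1 replicate 3 (0.0922). CPS1 was at 9.96, 7.48 and 10.18, so that 1 array lay far below the others. Its fall of 1.64 ± 0.55 was lost without that array, replicate 2 (0.281), and without filamentous replicate 1 or 2 (0.0874 and 0.0675). The number of members called was 3 without sfl1 replicate 3 and 6 without filamentous replicate 1.

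In skn7 the 3 calls that held without each array were PBI2, ATG18 and ATG15. ATG18 was at 7.79, 7.30 and 7.54 against 6.40, 6.46 and 6.51 in the filamentous wild type, and rose by 1.09 ± 0.20 (adjusted p = 0.000204). ATG15, at 7.55, 7.61 and 7.60 against 6.81, 6.78 and 6.55, rose by 0.88 ± 0.27 (adjusted p = 0.00971). The second ATG15 probe set, not used in these tests, had means of 6.10 in the yeast form and 5.40 in the filamentous form of the wild type, the same order as the 7.34 and 6.71 of the one used. ATG41, ATG22, PRC1 and PEP4 also rose, by 1.14, 0.90, 0.72 and 0.60, and ATG3 and ATG38 fell by 0.48 and 0.41. All 6 of these were lost without skn7 replicate 1 (adjusted p = 0.126 to 0.263), 5 of them (not ATG22) also without filamentous replicate 3 (0.0902 to 0.14), and 4 (not ATG22 or ATG38) without skn7 replicate 3 (0.0521 to 0.113). The number called was 4 without filamentous replicate 3, 3 without skn7 replicate 1 and 5 without skn7 replicate 3. It was 17 when skn7 and the filamentous wild type were fitted alone.

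PBI2 was the member that fell in the most strains, 7 of 19. In skn7 its arrays were at 8.41, 9.32 and 8.77, all below the yeast-form range, and it fell by 1.85 ± 0.35 (adjusted p = 0.000319). It also fell in cup9-sfl1 by 1.42 (9.82, 9.0 and 8.96), in cup9-skn7 by 1.41 (8.85, 9.46 and 9.49), and in sfl1-skn7 by 1.45 (8.70, 9.74 and 9.24). In these 4 strains every array was below the lowest filamentous wild-type array, 10.43. The fall of 1.15 in sfl1 was lost without sfl1 replicate 1 or 3 or filamentous replicate 1 (adjusted p = 0.0816, 0.0745 and 0.0569). The fall of 1.21 in tec1-sfl1 was lost without its replicate 1 or filamentous replicate 1 (0.104 and 0.0598), and the fall of 1.08 in yap6 as given above. The fall in cup9-skn7 was lost without replicate 1 of that strain (0.0975).

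Across the 13 strains labelled as double deletions, 114 calls were made on the 44 genes (19.6% of all tests over all genes were called), and sfl1-yap6 gave the most. Its 30 rises and no fall (46.6% of all genes called, 23.9% higher and 22.7% lower) held without each array, and the median of the 44 was 0.90 against 0.02 over all genes. Next came cup9-yap6 with 17 rises (22% of all genes called, 13.5% higher and 8.52% lower) and sfl1-sok2 with 14 (21.4%, 9.35% higher and 12% lower), neither with a fall. The shares of the 44 that rose, 38.6% and 31.8%, were above those of all genes. The cup9-sfl1 strain had 12 rises and 1 fall (36.5% of all genes, 14.6% higher and 21.9% lower), and tec1-skn7 had 11 and 1 (31.9%, 17.3% higher and 14.6% lower). In sok2-yap6 there were 8 rises (14.9%, 9.78% higher and 5.11% lower), in sfl1-skn7 5 rises and 1 fall (19.4%, 8.11% higher and 11.3% lower) and in tec1-sfl1 4 and 1 (18.8%, 10% higher and 8.77% lower). The tec1-sok2 and sok2-skn7 strains had 3 rises each (10% of all genes, 7.59% higher and 2.43% lower, and 7.34%, 3.7% higher and 3.63% lower). The cup9-skn7 strain had 1 rise and 1 fall (14.1%, 4.51% higher and 9.56% lower), and cup9-sok2 had 1 rise (10.6%, 5.29% higher and 5.36% lower). The tec1-cup9 strain had none by limma (1.8% of all genes). At an unadjusted p under 0.05 it had 1 of 44, a threshold at which the share of all genes is not given here.

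In sfl1-yap6 genes of nearly every role rose. Among hydrolases 5 of 7 rose, led by APE1 at 11.45, 11.37 and 11.86 against 8.54, 8.59 and 7.80 in the filamentous wild type. Its rise of 3.25 ± 0.38 (adjusted p = 5.34e-10) was a 9.49-fold difference, the largest among the 44 in this strain. PEP4 was at 12.82, 12.76 and 12.65, above all wild-type arrays of both forms, and rose by 1.75 ± 0.23. PRC1, AMS1 and PRB1 were 2.83-, 2.75- and 2.58-fold higher, while APE3 (0.47, adjusted p = 0.0864) and CPS1 (0.11) were not called. In vacuolar breakdown, ATG42 was at 9.80, 10.14 and 10.28, again above every wild-type array, and was 7.49-fold higher than in the filamentous form (adjusted p = 3.33e-10). ATG15 was 3.25-fold higher, and ATG22 was not called (0.56, adjusted p = 0.103).

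The upstream machinery rose in part. Of the selective genes 9 of 10 rose, among them ATG19, the receptor for APE1 and AMS1 (1.86 ± 0.25), ATG32 (1.45 ± 0.28) and ATG39, a receptor for the nuclear envelope. ATG39 was at 5.58, 4.99 and 5.72 against 3.51, 3.65 and 3.74, with no overlap, and rose by 1.80 ± 0.24 (adjusted p = 7.26e-09). Of the conjugation genes 4 of 8 rose: ATG8, ATG7, ATG5 and the protease gene ATG4. ATG8 was at 8.27, 8.08 and 8.50, above all 9 wild-type arrays, and rose by 1.79 ± 0.27 (adjusted p = 1.44e-07). The other conjugation genes, ATG3, ATG10, ATG12 and ATG16, lay between -0.01 and 0.31. In the Atg1 complex ATG13, ATG31, ATG29 and ATG11 rose by 1.25, 0.99, 0.72 and 0.51, while ATG1 and ATG17 were not called (0.27 and 0.01). Of the Atg9 and membrane genes ATG41, ATG18, ATG2 and ATG9 rose by 2.19, 0.88, 0.64 and 0.59. ATG14, of the PI3-kinase complex, rose by 0.95 (0.61 without sfl1-yap6 replicate 3, adjusted p = 0.00137), and ATG45 by 1.58 ± 0.18.

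In the other strains the leading genes were partly different. In cup9-yap6, whose CUP9 transcript was not lower than in the wild type, ATG41, ATG42, APE1 and ATG7 rose by 2.60 ± 0.39, 1.67 ± 0.34, 1.57 ± 0.38 and 1.52 ± 0.24, and 12 of its 17 calls held without each array. In sfl1-sok2 PRB1 was at 11.30, 10.80 and 10.55 and rose by 1.54 ± 0.28 (adjusted p = 5.35e-05), the highest mean of PRB1 in any colony group (10.88). AMS1, ATG40 and ATG5 rose there by 1.23, 1.2 and 1.06. In sfl1-sok2 7 members were called without its replicate 1, and 6 of the 14 calls held without each array. In tec1-skn7 ATG41 and ATG42 rose by 1.65 ± 0.39 and 1.51 ± 0.34, and 8 of 12 calls held. In cup9-sfl1 3 of 13 calls held without each array (ATG5, PEP4 and PBI2), and the number called was 3 without replicate 3 of that strain and 7 without filamentous replicate 3. In sok2-yap6 2 of 8 held, with 3 called without its replicate 1 and 17 without its replicate 2.

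**Figure D2:**
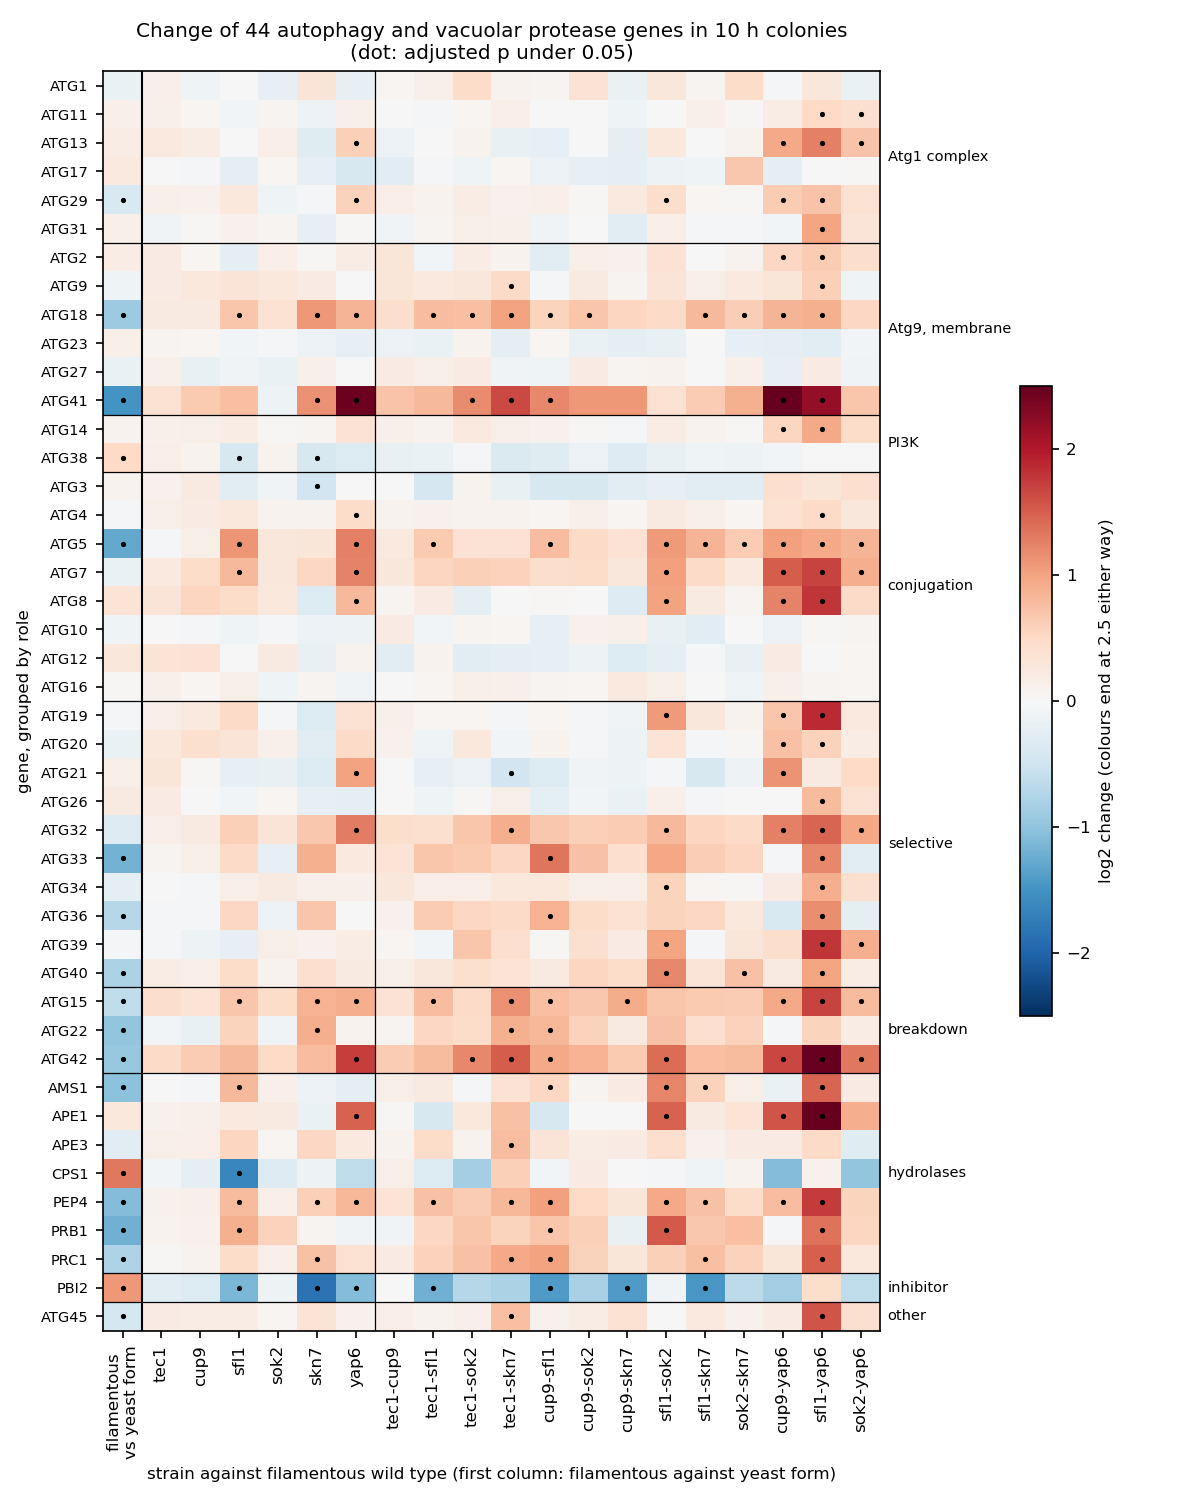
Change in log2 level of the 44 genes (rows, by role) in 20 colony comparisons (columns), coloured by the difference of means, with a dot where the adjusted p was under 0.05. The sfl1-yap6 column holds 30 rises, the form column holds 15 falls and 3 rises, and the PBI2 row holds 7 falls in deletion strains.

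Whether a pair of deletions changed a gene by the sum of the single changes was tested as a departure from that sum. Over 13 pairs and 44 genes, 15 departures were called, 11 of them in sfl1-yap6 (14.3% of all genes), 3 in sfl1-skn7 (10% of all genes) and 1 in tec1-cup9 (2.62%). In sfl1-yap6, 10 departed upward and 1 downward. PBI2 changed by -1.15 in sfl1 and -1.08 in yap6, a sum of -2.23, and by 0.45 in the double, where its arrays were at 11.06, 10.77 and 11.55. Its departure was 2.68 ± 0.49 (adjusted p = 0.000119), the largest of the 11. ATG39 changed by -0.21 and 0.19 in the single deletions and by 1.80 in the double, a departure of 1.81 ± 0.33 (adjusted p = 0.000117). ATG45 and ATG26, a sterol glucosyltransferase gene, also departed upward, by 1.29 ± 0.26 and 1.09 ± 0.23.

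ATG5 was the one that departed downward. Its single changes of 1.10 and 1.27 sum to 2.37, and the double changed by 0.94, a departure of -1.43 ± 0.24 (adjusted p = 3.7e-05). Its arrays were at 8.52, 8.59 and 8.52 in the double, within the range of the sfl1 arrays, and the lowest yap6 array was also at 8.59. These 5 departures held without each array. The other 6 (APE1, CPS1, ATG19, AMS1, ATG31 and ATG38) did not, and the number called was 7 without filamentous replicate 1 and 5 without sfl1-yap6 replicate 3. CPS1, whose sum of -2.27 rests on the sfl1 array at 7.48, departed by 2.37 ± 0.78 (adjusted p = 0.0318, and 0.152 without that array). None of the departures in sfl1-skn7 (ATG18, ATG38 and PBI2) held without each array. Nor did ATG12 in tec1-cup9, where the libraries that read against their labels enter the sum.

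**Figure D3:**
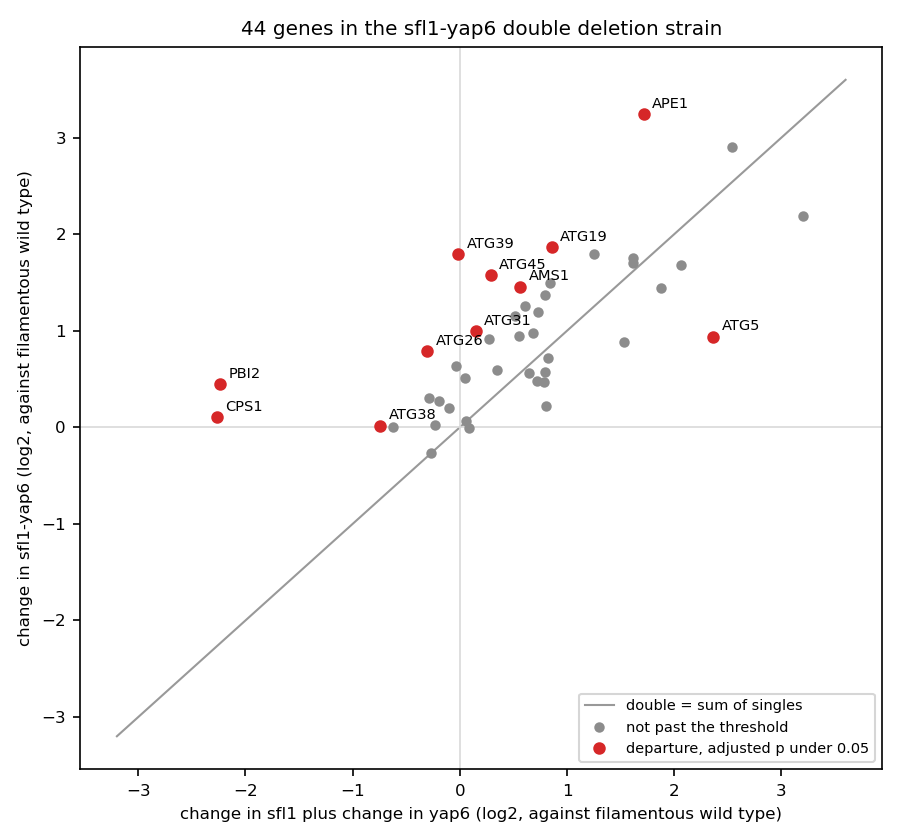
Change in log2 level of each of the 44 genes in sfl1-yap6 (vertical axis) against the sum of its changes in sfl1 and yap6 (horizontal axis), all against the filamentous wild type, with the line of equality and the 11 called departures in red. PBI2 lies at a sum of -2.23 and a double change of 0.45, and ATG5 lies below the line at 2.37 and 0.94.

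Over the 19 deletion strains, which share the 3 wild-type arrays, 136 rises and 12 falls were called in 836 tests of the 44 genes, so that 16.3% of the tests were rises. Over all genes, 18% of the tests were called, 8.9% as rises and 9.13% as falls. The genes of vacuolar breakdown and efflux had the highest share, with 21 rises in 57 tests (36.8%), followed by the hydrolases with 29 in 133 (21.8%) and the Atg9 and membrane genes with 23 in 114 (20.2%). The conjugation genes had 22 in 152 (14.5%), the selective genes 26 in 190 (13.7%), the Atg1 complex 11 in 114 (9.65%) and the PI3-kinase pair 2 in 38 (5.26%). These shares count the strains together and were not tested against each other.

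ATG18 rose in 12 of 19 strains, ATG5, ATG15 and PEP4 in 10 each, ATG42 in 8 and ATG41 in 7. Since all strains are set against the same arrays, a low value on those arrays enters every count of rises, and a high value every count of falls. The filamentous wild type had the lowest mean of the 21 groups for 9 genes (ATG4, ATG7, ATG15, ATG18, ATG32, ATG40, ATG42, PEP4 and PRC1). A further 7 genes were called in no strain: ATG1, ATG10, ATG12, ATG16, ATG17, ATG23 and ATG27. APE1 had the widest range of group means, 3.64 on the log2 scale, from 7.92 in cup9-sfl1 to 11.56 in sfl1-yap6, followed by ATG42 (2.91) and ATG41 (2.72).

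**Figure D4:**
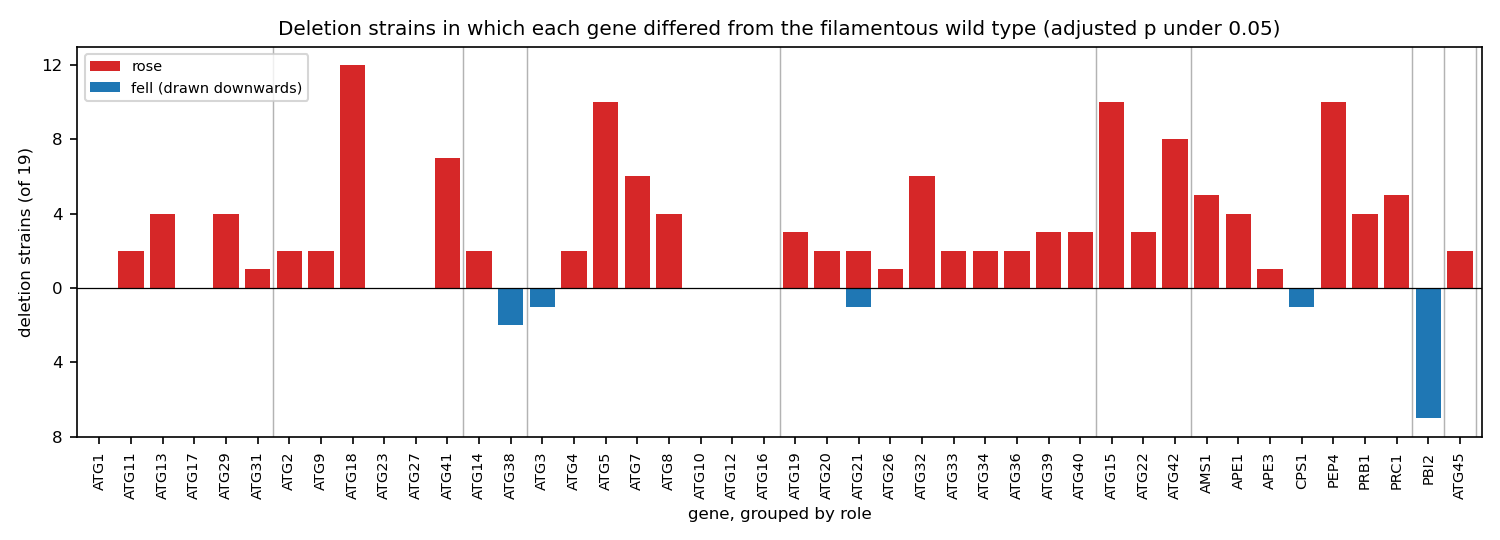
Number of deletion strains, of 19, (vertical axis) in which each gene (horizontal axis, by role) rose (bars upward) or fell (bars downward) against the filamentous wild type at an adjusted p under 0.05. ATG18 leads with 12 rises, and PBI2 has 7 falls and no rise.

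As a description of which genes varied together, Pearson correlations were taken over the 21 group means of the colony table, which share normalization and, for the strains, medium. The 946 pairs of the 44 genes had a median of 0.25, and 46 pairs were above 0.8. Pairs of other genes were not taken, so whether the 44 varied together more than other genes was not tested. The closest pairs were ATG33 with ATG36 (0.934), ATG4 with ATG7 (0.916), ATG8 with ATG19 (0.914), ATG32 with ATG42 (0.913) and ATG13 with ATG14 (0.904). Except for ATG33, every gene in these pairs had its highest group mean in sfl1-yap6, and correlations without that group were not taken. The protease genes PEP4 and PRC1 had a correlation of 0.876. PBI2 had a correlation of 0.20 with the gene of its target, PRB1, of -0.54 with ATG18 and of 0.70 with ATG26.

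Genes of the neighbouring steps that the naming rule did not take were set beside these. Of all genes, 44.9% were called between the forms (21.6% higher and 23.2% lower). In sfl1-yap6 46.6% were called (23.9% higher and 22.7% lower). The counts of these lists were not tested against those shares. Of 7 other vacuolar hydrolases, inhibitors and sorting factors, 5 fell and none rose between the forms (median -0.43), with TFS1, an inhibitor of carboxypeptidase Y (-1.32 ± 0.23), DPP1 (-0.88), PEP1, the sorting receptor of carboxypeptidase Y (-0.61), and PAI3, an inhibitor of proteinase A (-0.43), leading. In sfl1-yap6 5 of the 7 rose (median 1.65), among them TFS1 (2.59) and DPP1 (1.65). Of 14 subunits of the vacuolar proton pump, 5 rose and 3 fell between the forms (VMA10 1.14, VMA8 1.06, VMA7 0.78 and STV1 -0.77), and 4 rose and 1 fell in sfl1-yap6. Of 11 autophagy factors not named ATG, 2 rose and 3 fell between the forms (VAC8 -0.91, VAM3 0.66, VPS15 -0.45 and VPS34 -0.41), and 6 rose in sfl1-yap6 (median 0.51). Of 7 genes of TOR complex 1 and its control, NPR3 rose between the forms (0.54), and 4 rose in sfl1-yap6. Of 11 regulators of autophagy genes, 1 rose between the forms, and 2 rose and 2 fell in sfl1-yap6.

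In SC medium the values are linear intensities in which 27 of the 44 genes had at least 1 array listed at the lowest value, 1. Of all member values 17.5% were at 1, against 13.3% of all gene values, so a fold that involves such a value depends on the floor and is not given. Against the wild type, none of the 44 was called by limma in ira1 (0.234% of all genes called), ira1RA (0.0719%), ira2 (2.09%) or RAS2V19 (0.144%). At an unadjusted p under 0.05 there were 8, 4, 9 and 5. The share of all genes at that threshold is not given here, so these counts cannot be read as an excess. With 2 arrays per mutant the lack of calls does not show that these genes were unchanged. The ira1RA strain set against ira1 also gave none (0.126% of all genes), with 6 unadjusted, again without a share of all genes. Median changes of the 44 in ira1 and ira2 were -0.40 and -0.75, against -0.10 and -0.18 over all genes. These and the later medians of the 44 in SC medium include genes with values at 1, so they can depend on the floor. Quantile normalization moved the 2 medians over all genes to 0.04 and 0.02 and those of the 44 to -0.08 and -0.24.

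The dominant negative RAS2A22 strain had 5 rises and no fall (8% of all genes called, 3.76% higher and 4.24% lower), all in genes of vacuolar proteolysis. The median of the 44 was 1.22 against -0.04 over all genes. Among autophagy genes with no array at 1, ATG33, ATG34, ATG22, ATG8 and ATG42 were also higher without overlap (1.98, 2.00, 1.34, 1.32 and 1.06). They were not called (adjusted p = 0.0616, 0.0683, 0.0813, 0.232 and 0.244). ATG5 was lower without overlap (-0.53) and not called either. The share of all genes without overlap is not given here, so these cannot be read as an excess. PBI2 had intensities of 878 and 441 in RAS2A22 and of 119, 132, 168 and 145 in the wild type, with no overlap (change 2.17 ± 0.48, adjusted p = 0.0179). PEP4 was at 920 and 1316 against 513, 344, 320 and 283 (1.64 ± 0.40, adjusted p = 0.0254), and PRB1 at 486 and 462 against 226, 212, 142 and 113 (1.52 ± 0.31, adjusted p = 0.0115). PRC1 rose by 1.44 ± 0.27 (adjusted p = 0.00802) and APE3 by 1.02 ± 0.21 (adjusted p = 0.0132), so that 4 of the 7 hydrolases and the inhibitor rose together. None of the 5 calls held without RAS2A22 replicate 1 or replicate 2, where 1 array stood for the group (adjusted p = 0.0534 to 0.257), and PEP4 was also lost without wild-type replicate 3 or 4 (0.0601 and 0.0634). Without wild-type replicate 1, 9 members were called. The count was 12 with the floor at the 25th percentile and 1 when the RAS2A22 and wild-type groups were fitted alone, where PEP4, PRC1, APE3 and PRB1 no longer passed (adjusted p = 0.0812, 0.0828, 0.0828 and 0.115).

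Between the dominant active and the dominant negative RAS2, 5 genes were lower in RAS2V19 and none higher (6.62% of all genes called, 3.44% higher and 3.18% lower), with a median of -0.95 over the 44 and 0 over all genes. PBI2 was at 96 and 44 in RAS2V19 against 878 and 441, a fall of 3.26 ± 0.56 (adjusted p = 0.00548). ATG34, the receptor for AMS1 in starved cells, was at 22 and 20 against 170 and 112 and fell by 2.72 ± 0.70 (adjusted p = 0.0411). APE3 fell by 0.97 ± 0.25 (adjusted p = 0.0395). ATG36 and APE1 were listed at 1 on both RAS2V19 arrays and at 48 and 48, and 26 and 26, in RAS2A22. ATG34, APE3 and ATG36 were lost without any 1 of the 4 arrays (adjusted p = 0.0917 to 0.21). PBI2 was lost without RAS2V19 replicate 2 or RAS2A22 replicate 1 (0.0508 and 0.0525), and APE1 without RAS2V19 replicate 2 or either RAS2A22 array (0.0754 to 0.0905). The number called was 3 without RAS2V19 replicate 1, 0 without its replicate 2, and 0 and 1 without RAS2A22 replicates 1 and 2. It was 3 with the filter on dim genes, 2 with the replicate block and 9 with the higher floor. With the 2 groups fitted alone, PBI2, APE3 and ATG34 no longer passed (0.118, 0.127 and 0.0508).

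The strains labelled ras1 ras2 pde2 gave the most calls in this table. With 2 mM cAMP set against 0 mM, 15 of the 44 fell and 1 rose (19.6% of all genes called, 12.1% higher and 7.54% lower). The median was -1.83 over the 44 and 0.13 over all genes. Of the 7 hydrolases 6 fell, CPS1 being the exception, and PBI2 fell with them.

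PBI2 was at 1403 and 1155 without cAMP, at 652 with 0.5 mM, at 350 with 1 mM and at 43 and 40 with 2 mM. Each higher concentration had a lower value, and between 2 and 0 mM PBI2 fell by 4.94 ± 0.56 (adjusted p = 0.000101). PEP4 was at 997 and 1045, then 387, then 334, then 161 and 119, the same order, and fell by 2.88 ± 0.46 (adjusted p = 0.000883). PRC1 was at 1676 and 1532, 734, 853, and 402 and 409, and PRB1 at 438 and 441, 196, 278, and 129 and 110. For both, the single 1 mM array was above the single 0.5 mM array. PRC1 fell by 1.98 ± 0.32 and PRB1 by 1.88 ± 0.36 (adjusted p = 0.000927 and 0.00271). APE3 was at 2021 and 1574, 468, 698, and 984 and 910, with its lowest value at 0.5 mM. Only 1 array was made at each of the middle concentrations, so no test was made there.

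Among the autophagy genes, ATG34 was at 311 and 282 without cAMP and at 57, 47, and 6 and 16 with rising concentration, and fell by 4.92 ± 0.70 (adjusted p = 0.000431). ATG8 was at 310 and 315, 121, 60, and 28 and 27, and fell by 3.51 ± 0.71 (adjusted p = 0.00402). ATG33, ATG42 and ATG22 fell by 3.81 ± 0.67, 2.96 ± 0.58 and 2.92 ± 0.49. ATG22 and ATG42 already had values of 51 and 33 at 0.5 mM, against 340 and 305 and 238 and 178 without cAMP. ATG39 was at 62 and 64 without cAMP and listed at 1 on all 4 arrays with it. Between 0 and 2 mM ATG41 had the opposite direction, at 23 and 27 without cAMP and 526, 512, and 144 and 147 with it. It rose by 2.55 ± 0.52 (adjusted p = 0.00438), across a step at which the strain and plasmid also differ. Among the arrays given cAMP, all of SR957, ATG41 was lower at 2 mM than at 0.5 or 1 mM. Its wild-type arrays, at 216, 136, 111 and 98, were also above those without cAMP. Of the 16 calls 12 passed without each array, although an arm of 1 array was then assumed to vary like the other groups, so this is a weak check. APE1, APE3, ATG3 and ATG36 were all lost without 0 mM replicate 1 (adjusted p = 0.0755, 0.18, 0.16 and 0.124). ATG3 and APE3 were also lost without 2 mM replicate 1 (0.249 and 0.0815), APE1, APE3 and ATG36 without 2 mM replicate 2 (0.107, 0.124 and 0.236), and APE1, ATG3 and ATG36 without 0 mM replicate 2 (0.0788, 0.0968 and 0.133).

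Of the neighbouring lists, TFS1, PAI3 and DPP1 fell among the 7 other vacuolar hydrolases, inhibitors and sorting factors (median -2.01). None of the 11 autophagy factors not named ATG, the 11 regulators or the 7 genes of TOR complex 1 was called by limma in this comparison. Of all genes, 19.6% were called there (12.1% higher and 7.54% lower).

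**Figure D5:**
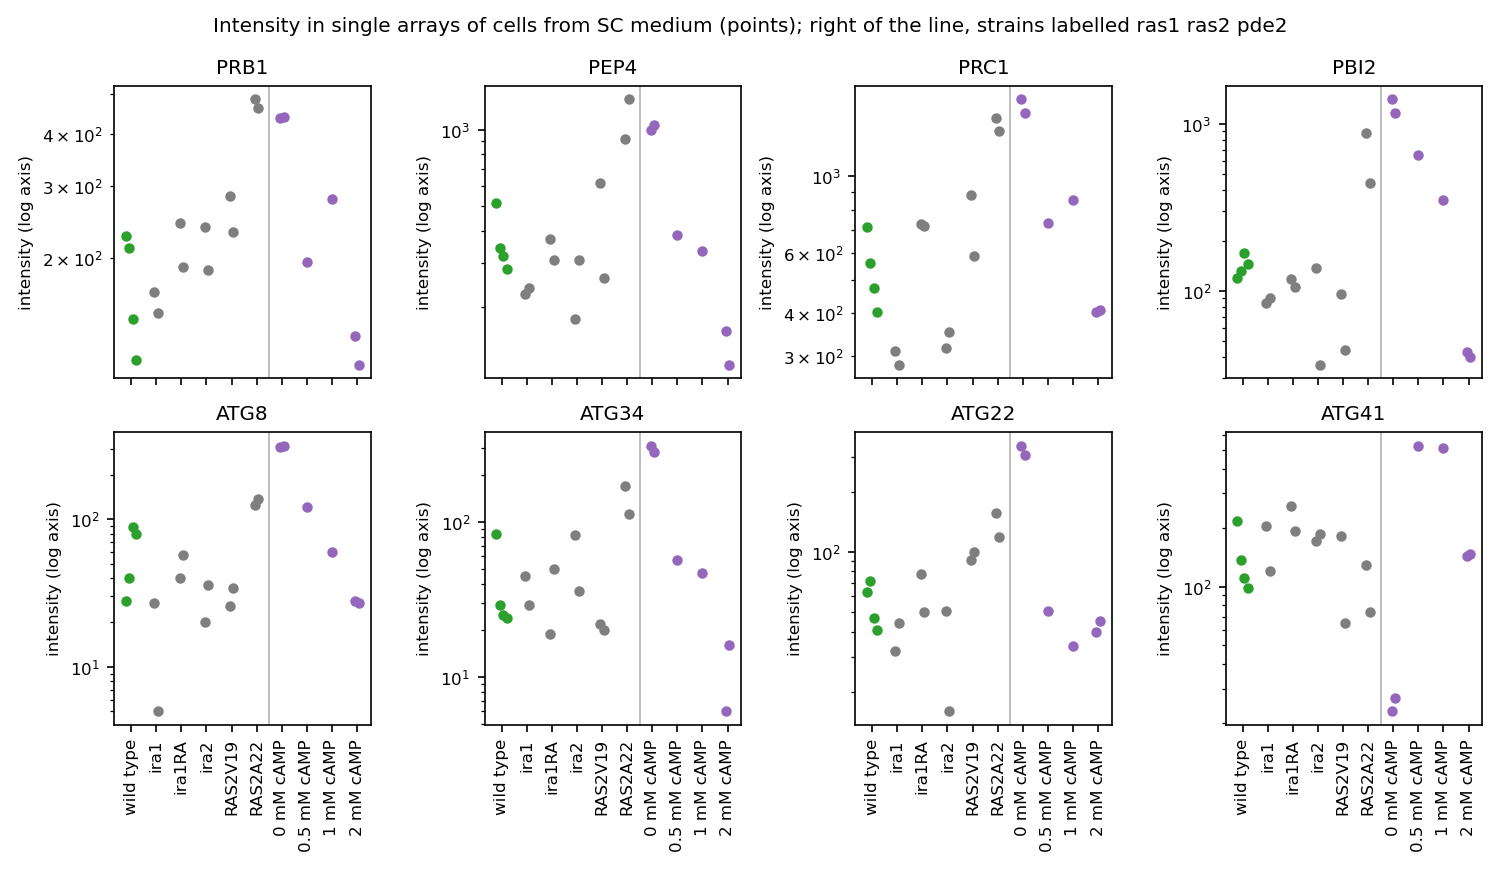
Deposited intensity (vertical axis, log scale) of PRB1, PEP4, PRC1, PBI2, ATG8, ATG34, ATG22 and ATG41 on each array in SC medium, by group and cAMP concentration in mM (horizontal axis). PBI2 goes from 1403 and 1155 without cAMP to 43 and 40 at 2 mM, while ATG41 has its lowest values, 23 and 27, without cAMP.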

How the data were processed

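Affymetrix arrays of 70 colony samples and 20 SC medium samples were used as the authors deposited them. The colony values are log2 levels that the authors made with the RMA method (submitters' processing notes), and array medians ran from 6.27 to 6.68. The SC values are deposited intensity in whole numbers, but the step that made them is not given in the sources used. The value 1 filled 6.77 to 25.6% of each SC array. Neither table gives detection calls or scan batches, so the number of arrays limits the precision. Nothing in the labels says that replicates came from separate cultures, so p-values measure the spread between these samples, which may be technical.

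Probe sets with 1 annotated gene were kept (5668 of 6739, giving 5562 genes, and 5595 of 6178, giving 5560 genes), and the probe set with the highest mean stood for a gene with several. SC arrays were scaled to equal medians, raised to at least the 10th percentile (0.993) and put on the log2 scale. Using limma 3.58.1 (R 4.3.3), all groups of a table were fitted together, with 49 and 10 residual degrees of freedom. Contrasts were tested two-sided over all genes with a threshold of 0.05 on the p adjusted by Benjamini-Hochberg. The 44 genes, the roles and the neighbouring lists were chosen with earlier results of these data known. Every one of the 44 could be named, and of a neighbouring list at most 4 called genes with the largest change between the forms, or the same genes in later comparisons.

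Residuals of arrays with the same replicate number had correlations over 0.1 for every pair in the wild-type comparison of forms alone (0.113 to 0.254), and the count with a block is therefore printed for it. The fits were tested on simulated data. The settings varied were the normalization (quantile), a filter on genes under the 25th percentile of level, fitting the compared groups alone, the replicate block, single arrays left out, the SC floor (25th percentile), and omission of 2 libraries, tec1 replicate 1 and cup9 replicate 4, that read against their labels.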

Additional observations from a re-analysis of the deposited data

Results flagged for a closer look

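In 24 of 176 groups of 4 to 6 arrays, 1 array lay far from the others of its group by Dixon's criterion, which chance flags in about 1 of 20 groups. In tec1 replicate 2 was low for PEP4 (10.53, the others 11.16 to 11.32), PRC1 (10.31, the others 10.85 to 10.93), ATG22 (5.72, the others 6.36 to 6.46), ATG19 (6.54), ATG33 (6.41) and ATG36 (4.80), and high for ATG23 (3.92). Replicate 3 of tec1 was low for ATG3 (5.42) and high for ATG29 (3.56). In cup9 replicate 5 was low for CPS1 (9.73, the others 10.59 to 10.90), APE3 (10.67) and ATG15 (6.76), while ATG27 was low in replicate 1 (6.25), ATG20 low in replicate 3 (3.23) and ATG42 high in replicate 2 (8.54, the others 7.47 to 7.74). In the yeast form of the wild type, ATG15 was low in replicate 3 (6.82, the others 7.32 to 7.52), and ATG17 (2.69) and ATG3 (5.32) were low in replicate 5. In the SC wild type AMS1 was high in replicate 1 (5.24, the others 3.16 to 3.31). ATG29 in replicate 1 (4.38), ATG1 and ATG9 in replicate 3 (both 3.16) and ATG23 in replicate 4 (4.69) stood above 3 arrays at the floor. With 3 arrays at the floor, nearly any value above it is flagged, so the rate of 1 of 20 does not apply to these genes. ATG38 in replicate 2 (0.041) was at the floor with the others at 3.58 to 4.08.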

How the results depend on the processing

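No call on the 44 genes reversed its direction under any alternative run. Several medians over all genes changed sign under quantile normalization, among them those of ira1 and ira2 as given above. Others among them were skn7 (from -0.05 to 0.01), tec1 (from 0.05 to -0.01) and cup9 (from 0.03 to -0.01). Of the calls made on the 44 genes, 196 kept their call under quantile normalization and 11 lost it, 177 and 30 did so when the compared groups were fitted alone, 188 and 19 with the replicate block, and, in the colonies, 176 and 5 when tec1 replicate 1 and cup9 replicate 4 were omitted. The count of members called changed by over 1.5 times in these cases: 17 for skn7 with its groups fitted alone; 1 for RAS2A22 against the wild type in that fit and 12 with the higher floor; and, for RAS2V19 against RAS2A22, 3 with the filter on dim genes, 2 with the replicate block and 9 with the higher floor. The cause was not tested. Between the forms the blocked count was 16, and apart from the 2 calls for RAS2V19 against RAS2A22 the block moved no count by over 1.5 times.

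With each array left out in turn, the count ran from 13 to 18 between the forms, from 3 to 10 in sfl1, 3 to 13 in skn7, 11 to 16 in yap6, 81 to 123 over the double deletions and 9 to 17 over the departures, and was 0 throughout in tec1, cup9 and sok2. The departures were 9 without filamentous replicate 1 and 9 without sfl1-yap6 replicate 3. In SC medium it ran from 0 to 2 in ira1, ira2 and ira1RA against ira1, 0 to 1 in ira1RA and RAS2V19, 0 to 9 in RAS2A22, 0 to 3 in RAS2V19 against RAS2A22 and 12 to 14 for cAMP, where all 4 arrays gave 16. Quantile normalization moved the median of the 44 to -2.14 for cAMP. The floor at 1 limits what the SC arrays show of weak genes.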
